A study of Mus musculus with 6 samples.

Results

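Matrix metalloproteases (MMPs), ADAMTS proteases, ADAMTS-like proteins and tissue inhibitors of metalloproteases (TIMPs) are the enzymes, relatives and inhibitors that govern how the matrix around muscle fibres is cut and processed. Every gene was taken whose symbol begins with Mmp, Timp, Adamts or Adamtsl followed by a number, which gave 50 genes on 66 probes, of 55669 probes in all. A gene was tested where a probe passed the background threshold of the scanner software on 3 or more of the 6 arrays, which held for 24 of these 50 genes, among 20900 genes tested in all. RNA of the gastrocnemius, a calf muscle, was measured at 13 weeks in 3 mice (young) and at 26 months in 3 others (aged), and each mouse had its own Agilent array. All were male C57BL/6J mice, and neither group carried a transgene or received a treatment that the sources name. A level is given below as log2 of the background-subtracted signal minus log2 of the 75th percentile of the same array, so that 0 is the 75th percentile of that array. A log2 fold change is the mean of the aged mice minus the mean of the young mice on this scale.

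MMPs are zinc-dependent proteases that are made as inactive precursors and are opened by other proteases at the cell surface or in the matrix. ADAMTS proteases are related secreted enzymes that trim procollagens, cut large proteoglycans or act on microfibrils, and ADAMTS-like proteins share their ancillary domains but have no protease domain. TIMPs bind the active site of these enzymes and block it, and the balance between enzymes and inhibitors is known to matter in muscle injury, growth and fibrosis.

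The stromelysin gene Mmp3 and the inhibitor gene Timp1 had the largest positive log2 fold changes among the 24 genes tested, so the 250 bases before their transcription starts are shown, with the same stretch of Adamts2, a procollagen protease whose level was lower in every aged mouse. The sequences are from RefSeq on the build GRCm38.p6 and run 5′ to 3′ on the strand of the gene up to the base before its start. They are upstream of the first exon. The window of Mmp3 is chr9:7445572-7445821 on the plus strand, with the letters TGANTCA in capitals. These letters, where N is any base, are a loose form of the binding motif of AP-1 proteins such as Fos and Jun. The window of Timp1 is chrX:20869916-20870165 on the plus strand, with the letters AGGAAG, the core of the PEA3 motif of Ets proteins, in capitals. The window of Adamts2 is chr11:50601835-50602084 on the plus strand, with the letters GGGCGG or their complement, the GC box of Sp proteins, in capitals.
Mmp3: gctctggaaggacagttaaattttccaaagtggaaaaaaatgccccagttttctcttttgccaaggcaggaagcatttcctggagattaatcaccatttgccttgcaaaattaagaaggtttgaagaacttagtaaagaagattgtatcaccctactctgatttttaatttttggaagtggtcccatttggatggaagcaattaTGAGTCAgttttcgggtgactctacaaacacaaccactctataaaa
Timp1: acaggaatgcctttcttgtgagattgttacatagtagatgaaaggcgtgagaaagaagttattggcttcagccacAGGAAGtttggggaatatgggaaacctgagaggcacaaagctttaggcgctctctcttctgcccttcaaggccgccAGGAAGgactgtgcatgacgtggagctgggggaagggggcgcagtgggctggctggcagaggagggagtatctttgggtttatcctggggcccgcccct
Adamts2: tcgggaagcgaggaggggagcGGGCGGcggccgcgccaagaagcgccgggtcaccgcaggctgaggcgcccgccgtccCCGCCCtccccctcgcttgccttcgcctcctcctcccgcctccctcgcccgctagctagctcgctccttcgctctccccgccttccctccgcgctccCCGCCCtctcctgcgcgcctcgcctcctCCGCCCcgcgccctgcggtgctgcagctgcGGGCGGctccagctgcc

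A promoter window was found for 35 of the 50 genes, and both strands were searched for each motif. Some genes have several starts, so the 35 genes had 38 windows. The AP-1 letters TGANTCA were in 8 of the 38 windows (21.1%), in 8 genes, and in 6.75% of all 32851 promoter windows of the same length. The PEA3 letters AGGAAG were in 36.8% of the family's windows and 29.5% of all windows. The GC box letters GGGCGG were in 52.6% and 32.7%, and the TATA box letters TATAAA in 26.3% and 12.4%. The 4 shares were each higher in the family's windows, with PEA3 closest to its share over all windows. The AP-1 windows all belong to the run of MMP genes named below and not to the family at large. This is a description with no test. The window of Mmp3 held the AP-1, PEA3 and TATA letters at 1 place each. That of Timp1 held the PEA3 letters at 2 places and the GC box letters at 1. That of Adamts2 held the GC box letters at 5 places and none of the others. No match overlapped another in these 3 windows. The 8 genes with the AP-1 letters were Mmp3, Mmp1a, Mmp1b, Mmp7, Mmp10, Mmp12, Mmp13 and Mmp20. All of them lay on chromosome 9 in a run of 10 MMP genes, within which the annotation has no other protein-coding gene. Mmp8 and Mmp27, the other two genes of the run, did not hold the letters in their windows. The sites are given with 12 bases on either side, because these neighbours share the letters while only Mmp3 among them was measured well enough to be tested. Capitals mark the AP-1 letters.
Mmp3: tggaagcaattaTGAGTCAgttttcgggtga
Mmp1a: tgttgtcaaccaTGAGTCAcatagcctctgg
Mmp1b: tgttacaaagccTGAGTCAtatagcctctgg
Mmp7: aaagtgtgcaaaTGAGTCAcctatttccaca
Mmp10: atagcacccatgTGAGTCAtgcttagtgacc
Mmp12: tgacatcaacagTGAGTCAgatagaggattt
Mmp13: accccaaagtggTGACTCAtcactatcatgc
Mmp20: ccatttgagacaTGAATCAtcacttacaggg
The site of Mmp3 spans chr9:7445764-7445794 with its flanks, and that of Mmp1b, the only one of the 8 genes on the minus strand, spans chr9:7388101-7388131. The site of Mmp20 has A at the base N, where the other sites have G or C. A match says only that these letters are present. Of the 9 genes of the run with a probe, 6 were well above background on no array.

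All 6 arrays were on 1 slide, between 48.7% and 53.8% of the probes of an array were well above background, and no probe was saturated. The arrays of the 3 young mice and of aged mouse 1 were in row 1 of the slide and those of aged mice 2 and 3 in row 2, so that row and age cannot be told apart except through aged mouse 1. The fit with the row as a block is therefore a comparison of aged mouse 1 with the young mice. Negative control spots had a mean net signal of 61.3 on the array of aged mouse 1 and of 51.9 to 55.1 on the others. All 7 markers of skeletal muscle fibres were well above background on every array, and their summed level, in multiples of the 75th percentile, was 4699 to 5746 in young mice and 3903 to 5107 in aged mice. In RNA of a whole muscle, fewer cells of a type and less RNA per cell cannot be told apart.

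The coverage of the family differed by class. All 4 TIMP genes, 5 of 7 proteoglycan-cleaving ADAMTS genes and 4 of 5 ADAMTS-like genes were tested. In contrast, none of 4 collagenase genes, 1 of 2 gelatinase genes and 3 of 6 genes of membrane-anchored MMPs were. In all, 21 genes were well above background on all 6 arrays, 7 untested genes on 1 or 2 arrays, and 19 on no array.

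**Figure D1:**
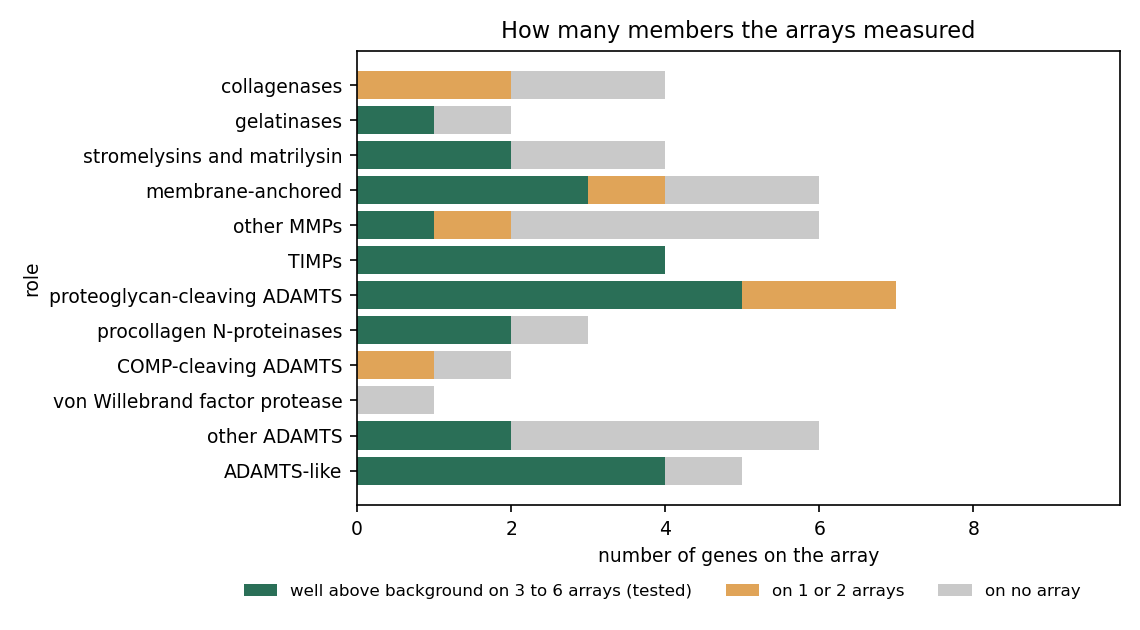
Number of genes of each class on the array (horizontal axis), split by the number of arrays on which a probe was well above background. All 4 TIMP genes were tested, whereas none of the 4 collagenase genes was.

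No gene of the family passed an adjusted p of 0.05 in limma (0 of 24, beside 53 of all 20900 genes tested, or 0.254%). The lowest adjusted p was 0.153 from limma, for Mmp3. At an unadjusted p under 0.05 there were 9 genes (37.5%), 3 with a higher and 6 with a lower mean in aged mice, where the background over all genes was 14.4% (6.07% higher and 8.36% lower). This count was 5 without young mouse 1, 5 without young mouse 2 and 5 after normexp background correction, each of 24 genes. Over all 20900 genes the counts were 2517, 1992 and 3154 in the same order. Where all 6 arrays had to pass the background filter, it was 6 of 21 genes, 2 higher and 4 lower, beside 2735 of all 18551 genes. The aged and young mice did not overlap for 9 of the 24 genes, of which 3 were higher and 6 were lower in aged mice, whereas 21.8% of all genes did not overlap (7.92% higher and 13.9% lower). Adamts18, among the lower genes in both counts, passed the background filter only through the arrays of young mice, where it was higher.

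The mean was lower in aged mice for 15 of the 24 genes, and for 56.9% of all genes. The median log2 fold change was -0.24 over the 24 genes and -0.062 over all genes tested. For each mouse, the median of its differences from the young mean over the 24 genes was between -0.039 and 0.027 in young mice, and it was -0.32, -0.17 and -0.18 in aged mice 1, 2 and 3. The medians over all genes were -0.070, -0.0097 and -0.075 in the same aged mice. All 3 aged mice were therefore below the young mice in this median. Each young mouse is part of the young mean it is set against, which by itself draws the young medians towards that mean. The comparison is a description of the 24 genes and has no test. With scaling to the median of each array, 18 of the 24 genes were lower and the median was -0.39, while the median of all genes moved to -0.21. Without young mouse 3 the median was -0.37.

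**Figure D2:**
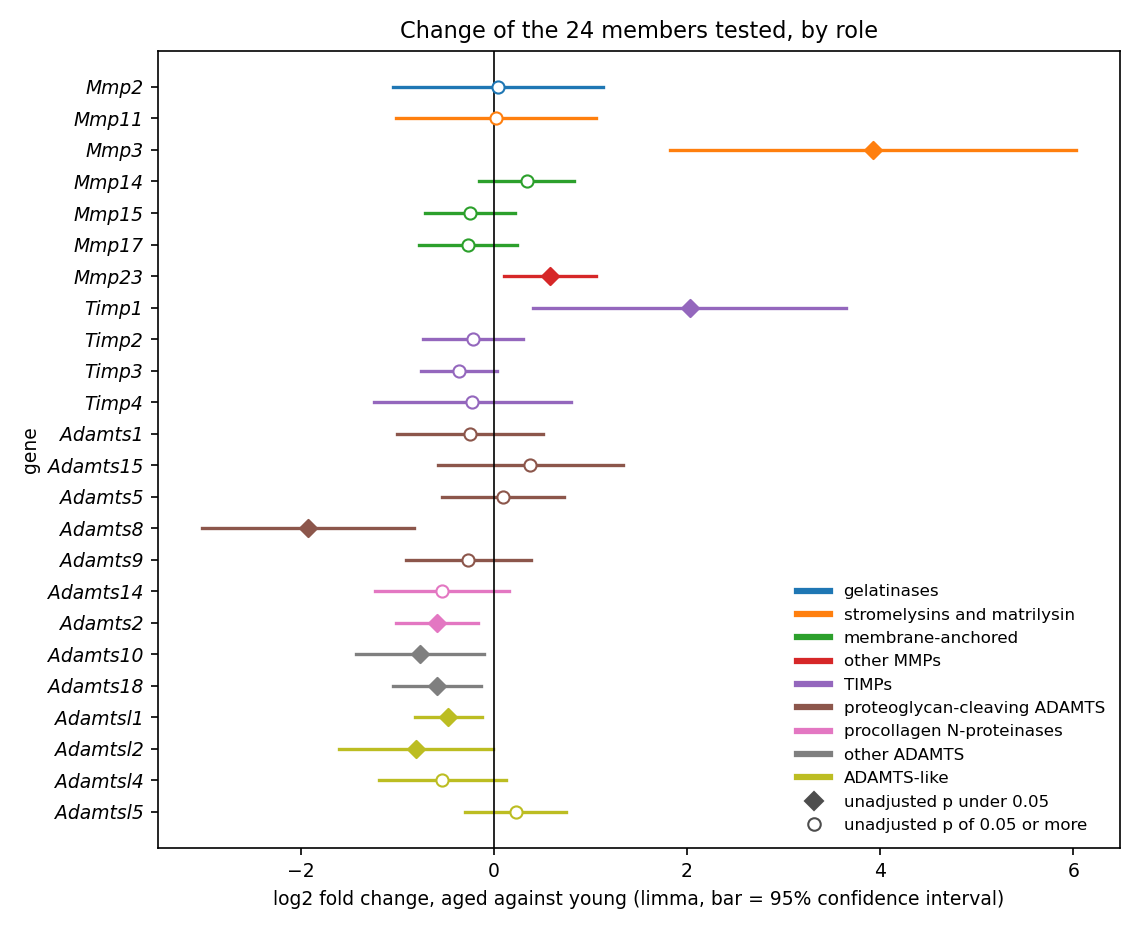
Log2 fold change of the 24 genes tested, aged against young (horizontal axis), with 95% confidence intervals from limma and colours for the classes. Filled diamonds mark the 9 genes with an unadjusted p under 0.05, of which Mmp3, Timp1 and Mmp23 lie above 0 and 6 ADAMTS and ADAMTS-like genes below.

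Among the MMPs, Mmp3 differed most between the groups. Mmp3 (NM_010809) is a stromelysin that cuts proteoglycans, fibronectin and laminin and opens the precursors of other MMPs. Its level was -3.03, -3.17 and -5.65 in young mice 1, 2 and 3, and -0.10, -1.31 and 1.33 in aged mice 1, 2 and 3. Every aged mouse was above every young mouse, and the lowest young mouse was not well above background. The young mean was -3.95 ± 1.47 and the aged mean -0.024 ± 1.32 (SD, n = 3 each), a log2 fold change of 3.93 (standard error, SE, 0.89, adjusted p = 0.153 from limma) with a 95% confidence interval of 1.82 to 6.03. This value includes young mouse 3, whose signal was not well above background. It was 3.08 without young mouse 3, and 1.70 after normexp background correction, the lowest value among 16 alternatives. With the row as a block it was 3.85. The other stromelysin tested, Mmp11 (NM_008606), which is opened inside the cell by furin, had a log2 fold change of 0.021, and its second probe gave 0.26.

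Gelatinases digest denatured collagen and basement membrane collagen, and they are the MMPs most often studied in muscle. Mmp2 (NM_008610), the gelatinase made by many stromal cells, had a level of 1.99, 1.72 and 0.21 in young mice and 1.56, 1.34 and 1.16 in aged mice. The aged mice lay within the range of the young mice, which was set by young mouse 3. The log2 fold change was 0.044 (SE 0.46, adjusted p = 0.971 from limma; 95% confidence interval -1.04 to 1.13), and without young mouse 3 it was -0.51. Mmp9 (NM_013599), the gelatinase known from neutrophils and macrophages, was well above background on none of the 6 arrays and was not tested. Its measured levels were -6.04, -6.05 and -5.72 in young mice and -3.90, -4.80 and -4.61 in aged mice, and signals at this level give no difference between the groups.

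Membrane-anchored MMPs work at the cell surface, where Mmp14 opens the precursor of Mmp2 with the help of Timp2. Mmp14 (NM_008608) had a level of -2.69, -2.42 and -2.21 in young mice and -1.82, -2.17 and -2.31 in aged mice. The groups overlapped through 1 aged mouse, and the log2 fold change was 0.34 (SE 0.21, adjusted p = 0.485 from limma), and 0.14 after normexp background correction. Mmp15 and Mmp17, a transmembrane and a lipid-anchored protease, had log2 fold changes of -0.24 and -0.26, both with overlapping groups.

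Mmp23 (NM_011985) encodes a protease that starts as a membrane protein and is released when it is opened by furin-like proteases. Its level was -2.19, -1.89 and -2.42 in young mice and -1.68, -1.36 and -1.72 in aged mice. All aged mice were above all young mice. The means were -2.17 ± 0.26 and -1.59 ± 0.20 (SD, n = 3 each), a log2 fold change of 0.58 (SE 0.20, adjusted p = 0.285 from limma). After normexp background correction it was 0.20, and with the row as a block 0.49.

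Collagenases make the first cut in fibrillar collagen, and none of the 4 genes reached 3 arrays. Mmp8 (NM_008611), the collagenase known from neutrophils, was well above background on 2 of 3 arrays of aged mice and on none of young mice. Its measured levels were -6.39, -4.90 and -6.07 in young mice and -3.11, -3.60 and -3.68 in aged mice, without overlap. For a fold, each array of the dim group was set to the higher of its own signal and the lowest signal of any probe well above background. The other group entered as measured, also where it was not well above background, so such a fold is no lower limit. By this setting the mean of Mmp8 in aged mice was 1.44-fold higher. Mmp1b (NM_032007) was well above background on 1 array, of young mouse 1. Its measured levels were -1.87, -4.87 and -4.01 in young mice and -4.10, -5.61 and -5.72 in aged mice, with overlap. By the same setting its mean in aged mice was 1.26-fold lower, which rests on young mouse 1. Mmp1a and Mmp13 were above background on no array. Neither was the stromelysin gene Mmp10 (NM_019471), with measured levels of -6.31, -6.00 and -5.98 in young mice and -5.97, -5.94 and -4.87 in aged mice, none of them well above background.

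The 4 TIMPs were measured in every mouse, and only Timp1 had a higher mean in aged mice. Timp1 (NM_001044384) encodes a soluble inhibitor that blocks most secreted MMPs, among them the stromelysins. Its level was -1.22, -0.77 and -1.20 in young mice and -0.36, 0.67 and 2.58 in aged mice. Every aged mouse was above every young mouse, and the aged mice were spread much more widely than the young. The means were -1.06 ± 0.26 and 0.97 ± 1.49 (SD, n = 3 each), a log2 fold change of 2.03 or 4.08-fold (SE 0.68, adjusted p = 0.272 from limma; 95% confidence interval 0.41 to 3.65). Without aged mouse 3, the highest, it was 1.22, and with the row as a block, which leaves aged mouse 1, the lowest of the aged, it was 0.71.

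The remaining TIMPs differed less. Timp3 (NM_011595), which is held in the matrix and also blocks aggrecan-cutting ADAMTS proteases, had a level of 4.61, 4.56 and 4.60 in young mice and 4.24, 4.43 and 4.03 in aged mice. All aged mice were below the young mice, which lay close together, and the log2 fold change was -0.36 (SE 0.17, adjusted p = 0.382 from limma). Timp2 (NM_011594), which both inhibits MMPs and takes part in the opening of Mmp2, had a level of 6.27, 6.28 and 6.31 in young mice and 5.65, 6.35 and 6.23 in aged mice. Aged mouse 1 stood well below the young mice, aged mouse 3 just below them and aged mouse 2 just above them. The log2 fold change of -0.21 (adjusted p = 0.676 from limma) was 0.00109 without aged mouse 1. A second probe, well above background on every array, gave a measured difference of -0.10. On that probe aged mouse 1 was below the young mice and aged mice 2 and 3 were above them. Timp4 (NM_080639), an inhibitor known from heart and muscle, had a level of 3.20, 3.15 and 1.77 in young mice and 2.86, 2.57 and 2.02 in aged mice. The groups overlapped, and the log2 fold change was -0.22 (SE 0.43, adjusted p = 0.835 from limma), with a sign that depended on which mouse was left out.

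**Figure D3:**
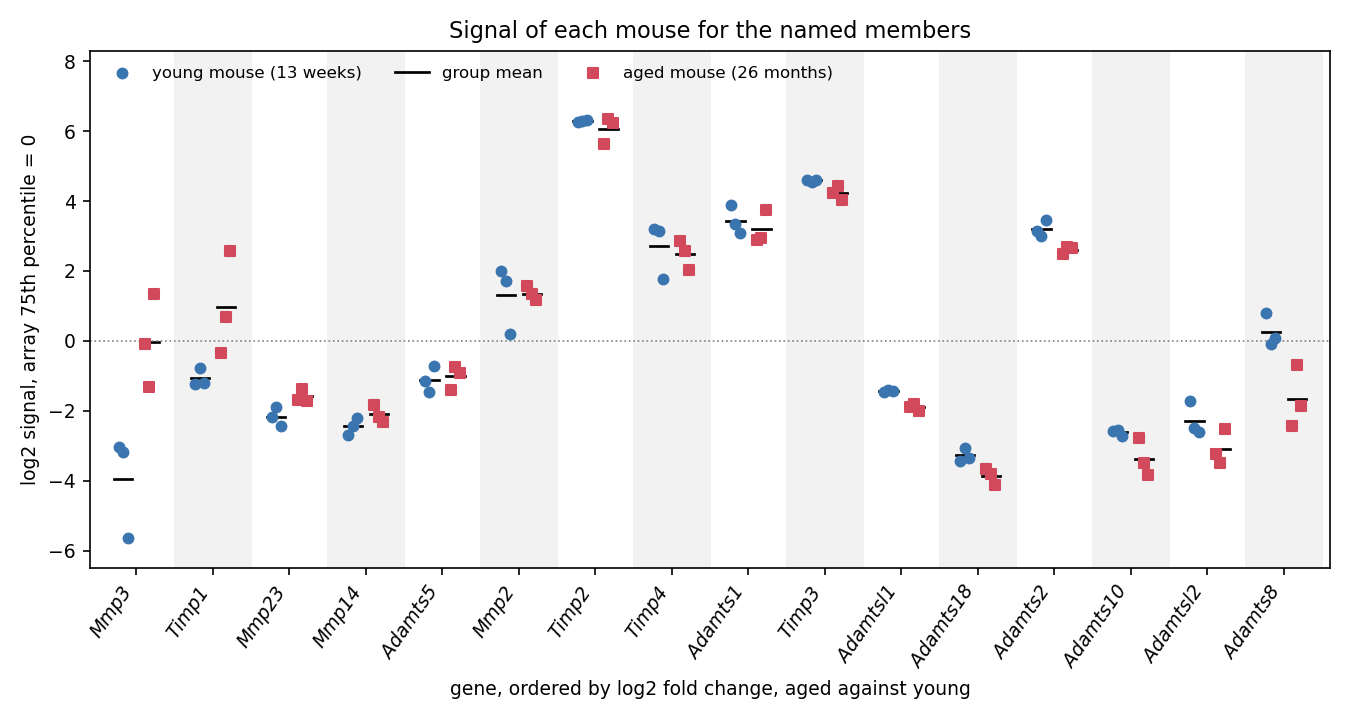
Level of each mouse for 16 genes of the family (vertical axis, log2 signal with the 75th percentile of the array at 0), with young mice as circles, aged mice as squares and group means as lines. Mmp3 has a mean of -3.95 in young mice and -0.024 in aged mice on this scale and Adamts8 lies lower in aged mice, whereas the 3 young mice of Timp2 and Timp3 lie close together.

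The ADAMTS proteases that cut aggrecan, versican and related proteoglycans had log2 fold changes of both signs. Adamts8 (NM_013906), a proteoglycan-cutting protease known as an inhibitor of blood vessel growth, had a level of 0.79, -0.080 and 0.090 in young mice and -2.43, -0.69 and -1.85 in aged mice. All aged mice were below all young mice. The means were 0.27 ± 0.46 and -1.66 ± 0.88 (SD, n = 3 each), a log2 fold change of -1.93, or 3.80-fold lower in aged mice (SE 0.46, adjusted p = 0.167 from limma; 95% confidence interval -3.02 to -0.83). Over 17 alternatives it lay between -2.70 (row as a block) and -1.36 (normexp background correction). A second probe of Adamts8, well above background on 1 array only, gave a measured difference of -0.22.

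Adamts1 (NM_009621), which cuts versican and is induced by inflammatory signals, had a level of 3.90, 3.34 and 3.08 in young mice and 2.89, 2.94 and 3.76 in aged mice. The groups overlapped, with aged mouse 3 near the highest young mouse, and the log2 fold change was -0.25 (SE 0.32, adjusted p = 0.745 from limma). Adamts5 (NM_011782), an aggrecan-cutting protease of cartilage, had a level of -1.15, -1.47 and -0.71 in young mice and -1.39, -0.74 and -0.92 in aged mice. The groups overlapped, with a log2 fold change of 0.10 (SE 0.26, adjusted p = 0.883 from limma) whose sign changed with median scaling (-0.051), and its second probe gave 0.35.

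Adamts4 (NM_172845), the other well-known aggrecan-cutting protease, was well above background on 2 arrays, both of aged mice. The measured levels were -4.89, -5.98 and -4.49 in young mice and -4.80, -3.43 and 0.33 in aged mice, so aged mouse 3 stood far above the rest while aged mouse 1 lay among the young mice. By the setting described for Mmp8, the mean in aged mice was 2.57-fold higher, and the gene was not tested. Aged mouse 1 entered this fold as measured, though it was not well above background. Adamts15 and Adamts9, both able to cut versican, had log2 fold changes of 0.38 and -0.26 with overlapping groups.

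Procollagen N-proteinases remove the amino-terminal propeptide of fibrillar procollagens, which allows fibrils to assemble. Adamts2 (NM_175643), the main enzyme for type I procollagen, had a level of 3.15, 3.00 and 3.45 in young mice and 2.48, 2.69 and 2.66 in aged mice. All aged mice were below all young mice. The means were 3.20 ± 0.23 and 2.61 ± 0.11 (SD, n = 3 each), a log2 fold change of -0.59, or 1.51-fold lower (SE 0.18, adjusted p = 0.233 from limma). It stayed between -0.74 and -0.47 over 17 alternatives and had an unadjusted p under 0.05 in each. Adamts14, a close relative, had a log2 fold change of -0.54 with overlapping groups and a second probe that was above background on no array, and Adamts3 was above background on no array.

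Adamts10 and Adamts18 had lower levels in all aged mice. Adamts10 (NM_172619), a protease linked to fibrillin microfibrils, had a level of -2.58, -2.55 and -2.71 in young mice and -2.79, -3.50 and -3.85 in aged mice. The gap between the groups was small because aged mouse 1 lay just below the young mice. The log2 fold change was -0.77 (SE 0.28, adjusted p = 0.299 from limma), -0.18 with the row as a block and -1.06 without aged mouse 1. Adamts18 (NM_172466) had a level of -3.43, -3.05 and -3.35 in young mice and -3.68, -3.81 and -4.11 in aged mice, and it was well above background on all arrays of young mice and on none of aged mice. The log2 fold change of Adamts18 was -0.59 (SE 0.19, adjusted p = 0.261 from limma), with the signals of aged mice entering as measured. By the setting described for Mmp8, the mean of Adamts18 in aged mice was 1.49-fold lower. After normexp background correction, Adamts10 was at -0.29 and Adamts18 at -0.13.

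ADAMTS-like proteins bind fibrillin and other matrix proteins without cutting them. Adamtsl1 (NM_029967) had a level of -1.46, -1.40 and -1.42 in young mice and -1.90, -1.80 and -2.00 in aged mice. All aged mice were below the young mice, and the mice of each group lay close together. The log2 fold change was -0.47 (SE 0.15, adjusted p = 0.242 from limma), and it was -0.28 after normexp background correction and -0.47 with the row as a block. A second probe of Adamtsl1, well above background on 1 array, gave a measured difference of 0.44. Adamtsl2 (NM_029981), which binds fibrillin and a latent TGF-beta binding protein, had a level of -1.73, -2.51 and -2.62 in young mice and -3.23, -3.50 and -2.53 in aged mice. The groups overlapped through aged mouse 3, and the log2 fold change was -0.80 (SE 0.34, adjusted p = 0.346 from limma). It was -0.53 without young mouse 1, -1.08 without aged mouse 3 and -0.39 after normexp background correction. Adamtsl4 and Adamtsl5, further fibrillin-binding members, had log2 fold changes of -0.53 and 0.23, and the second probe of Adamtsl5 gave -0.16.

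**Figure D4:**
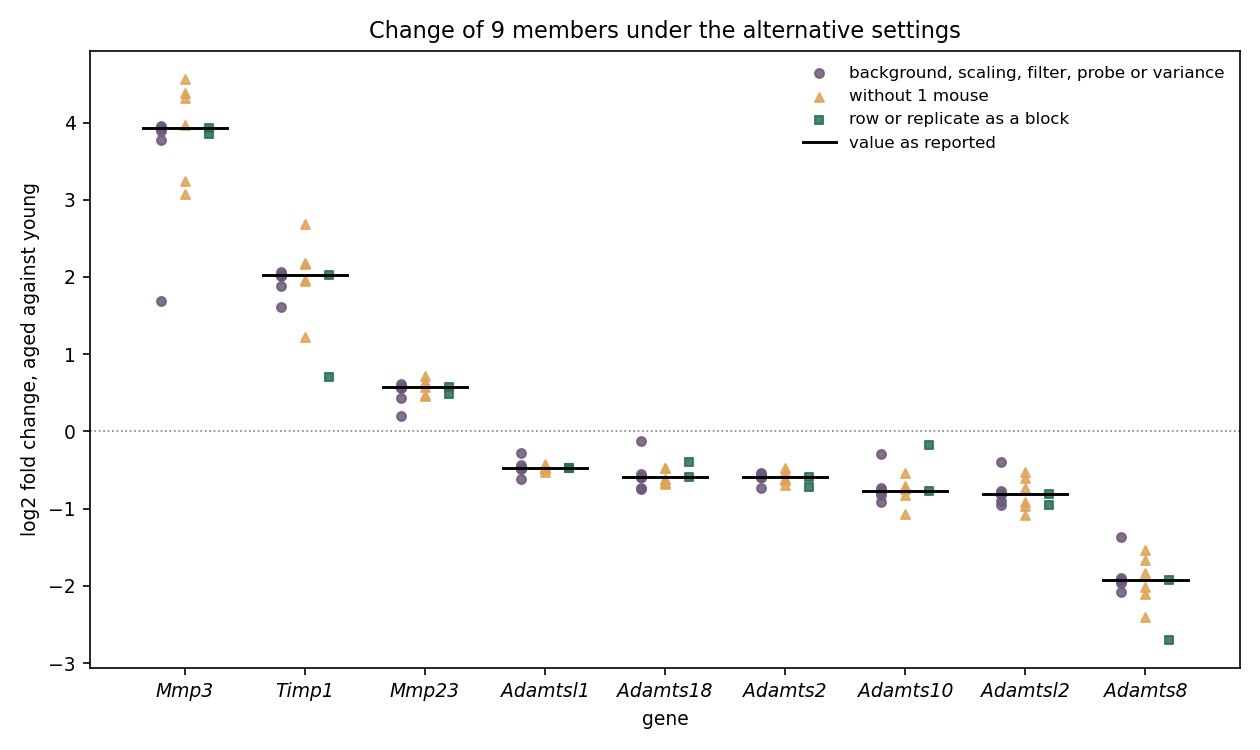
Log2 fold change of the 9 genes with an unadjusted p under 0.05 (vertical axis) as reported (line) and under the alternative settings (points). No point crosses 0, and the values of Mmp3 and Timp1 spread most, from 1.70 to 4.57 and from 0.71 to 2.69.

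Activators, related proteases and substrates of the family were read from a list of 51 genes, of which 43 were tested and none passed an adjusted p of 0.05 in limma. At an unadjusted p under 0.05, 1 gene was higher and 8 were lower in aged mice, beside 6.07% higher and 8.36% lower over all genes, and the median log2 fold change over the 43 genes was -0.11. The gene with the higher mean was Adam8, a membrane protease of leukocytes, at 0.99. Among enzymes of procollagen maturation, Bmp1, the C-proteinase, was at -0.64 and its enhancer Pcolce2 at -0.76. The other enhancer on the list, Pcolce, was brighter and at -0.028, with overlapping groups. Serpine2, an inhibitor of plasminogen activators and thrombin, was at -0.72, and Ctsk, a collagen-degrading cathepsin, at -1.01 (adjusted p = 0.067 from limma). The substrates with lower means were the type I collagen chains Col1a1 (-1.56) and Col1a2 (-1.54), Comp (-1.42), a cartilage and tendon matrix protein, and fibronectin, Fn1 (-0.35). Of the 13 tested genes of activation and clearance, Serpine2 was the only one with an unadjusted p under 0.05.

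Markers of other cells in the muscle were set beside these values, and their counts at an unadjusted p under 0.05 stand beside 6.07% higher and 8.36% lower over all genes. Of 10 macrophage markers, 9 were tested and 4 (Adgre1, Cd68, C1qb and C1qc) were higher at an unadjusted p under 0.05. The mean was higher in aged mice for 7 of the 9, and lower for Csf1r (-0.053) and Itgam (-0.26). The summed level of the 10 markers was 43.9 to 51.9 in young and 50.2 to 52.4 in aged mice. Most of it came from Itgam and Csf1r, and Cd163 was above background on no array. Of 8 neutrophil markers with a probe, 4 were tested. The summed level of the 8 was 156 to 161 in young and 146 to 183 in aged mice. Most of it came from Csf3r, with means of 7.30 and 7.35 on the log2 scale. This sum therefore follows a gene far brighter than the other markers and cannot be read as an amount of neutrophils. Retnlg was well above background on all arrays of aged mice and on none of young mice, whereas Ngp and Mpo were above background on no array. Camp was lower at an unadjusted p under 0.05, with a log2 fold change of -0.40, and Elane was at -0.31. The part of macrophages and neutrophils in the values of Mmp3, Timp1, Mmp8 and Adamts4 was not tested.

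Of 8 fibroblast markers, all tested, 2 (Dcn and Col1a1) were lower at an unadjusted p under 0.05. The mean was lower in aged mice for 6 of the 8, and higher for Ly6a (0.48) and Cd34 (0.69). Their summed level was 406 to 454 in young and 228 to 365 in aged mice. Most of it came from Dcn, with means of 8.43 and 7.57 on the log2 scale. Of 6 tenocyte markers, 5 were lower and Scx was higher at an unadjusted p under 0.05, Kera passed the adjusted threshold, and the summed level was 64.0 to 70.9 in young and 42.4 to 82.3 in aged mice. Endothelial markers had 1 of 6 lower at an unadjusted p under 0.05 (Cdh5) and 3 of 6 with a lower mean, with summed levels of 15.6 to 18.8 and 11.4 to 13.7. Schwann cell markers had 5 of 6 tested lower at an unadjusted p under 0.05, Prx passed the adjusted threshold, and the summed level was 23.1 to 43.1 in young and 20.9 to 38.8 in aged mice. Of 5 mast cell markers tested, Cma1 was higher at an unadjusted p under 0.05, with summed levels of 4.0 to 5.6 in young and 5.2 to 7.3 in aged mice. The part of these cells in the lower values of Adamts2, Adamts8, Adamts10, Adamts18, Adamtsl1 and Adamtsl2 was not tested.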

How the data were processed

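Per the labels, total RNA of gastrocnemius muscle was labelled with Cy3 and hybridized to single-colour Agilent arrays (6 samples, grouped by the age in the labels). The intensity used was the processed signal that the authors deposited, from which the scanner software (Feature Extraction, 9.5 per the labels and 11.0.1.1 per the file headers) had subtracted the background and removed trends within the array. It was not scaled between arrays. The methods name no normalization or test. Outlier spots were left out, spots of a probe were averaged (62976 spots, 55681 probes, 12 without a usable spot), and log2 intensity minus the 75th percentile of the array was used. A probe counted as well above background where at least 0.5 of its spots did, and 3 of 6 arrays were required. The brightest such probe represented a gene. Probe accessions were named through RefSeq (GRCm38.p6), which gave 28325 probes a symbol and left 27344 without. A probe without a symbol counted as a gene under its own identifier, so the genes tested in all include unnamed transcripts. The ages were compared by limma 3.58.1 under R 4.3.3 (moderated test, Benjamini-Hochberg over 20900 genes, threshold 0.05), tested on simulated data. Arrays give no read depth, and 3 mice per group limit the precision.

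The members, the pathway list and the marker lists were chosen with earlier results of these data known. Values of every mouse were given for each member with an unadjusted p under 0.05 or with groups that did not overlap, tested or not, for the Timp genes, and for Mmp2, Mmp3, Mmp9, Mmp14, Adamts1, Adamts2, Adamts4 and Adamts5. Mmp27 had no probe matched here. The alternatives were normexp (offset 50, on the median signal, as the mean signal is not used here), quantile normalization, scaling to the median or to detected probes, no filter or all 6 arrays, the mean of all probes, the series matrix values (identical intensity), a mean-variance trend, a block for the slide row or for the replicate number, and the omission of each mouse in turn. Samples with the same number did not deviate together (correlations -0.06, -0.27 and 0.03), so the numbers were not taken as pairs.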

Additional observations from a re-analysis of the deposited data

How the results depend on the processing

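No gene of the family passed the threshold under any of 17 alternatives. Genes past it in all numbered 53, but 8 with no filter on dim probes, 35 when all 6 arrays had to pass the background filter, and 5 under the replicate block, where the lowest adjusted p of the family was 0.282 (Mmp3, from limma) and no call changed. Leaving out a mouse gave 9, 8 and 8 genes (young 1, 2 and 3) and 199, 9 and 1 (aged 1, 2 and 3), a range of 1 to 199. The median of the family, -0.24, was -0.39 with median scaling, 0.070 with no filter, where all 50 genes enter and most are dim, -0.32 with the slide row as a block, and -0.37 to -0.18 without 1 mouse. The cause of the other shifts was not tested. Of the 24 genes tested, 16 had the same direction in every alternative, and so did 12 of the 16 whose values are given for each mouse. The series matrix values, the mean-variance trend and the replicate block leave the log2 fold change as it was, so these alternatives could not change a direction. Dropping the filter or requiring all 6 arrays also gave the same value for each of the 24 genes that entered. The mean of all probes gave another value only for Adamts5, Adamtsl5, Mmp11 and Timp2. Mmp2 (0.044) was -0.026 after normexp, -0.10 with median scaling, -0.51 without young mouse 3 and -0.060 without aged mouse 1, a range of -0.51 to 0.39 over single omissions. Adamts5 (0.10) was -0.051 with median scaling, -0.28 with the row as a block, -0.081 without young mouse 2 and -0.043 without aged mouse 2 (omissions -0.081 to 0.30). Timp2 (-0.21) was 0.00109 without aged mouse 1 (omissions -0.35 to 0.00109). Timp4 (-0.22) was 0.16 with the row as a block, 0.026 without young mouse 1, 0.000879 without young mouse 2 and 0.013 without aged mouse 3 (omissions -0.69 to 0.026). With the row as a block, Mmp17 (-0.26) was 0.025, Adamts15 (0.38) was -0.39 and Adamtsl4 (-0.53) was 0.077. Mmp11 (0.021) was -0.13 with median scaling, -0.061 and -0.071 without young mice 1 and 3, and -0.46 without aged mouse 1. After normexp, 19 of the 24 values were smaller in size, and 10 were smaller by over 1.5 times or reversed. The offset of 50 is added to every signal, which by itself makes the log2 fold changes of dim genes smaller. The normexp values therefore cannot separate the background correction from the offset.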
